A study of Mus musculus with 24 samples.

Results

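The comparison described here set brown preadipocytes differentiated for 8 days with EGCG against cells differentiated for 8 days without it, in 6 of the 24 RNA-seq libraries of the series. All cells came from the stromal vascular fraction of interscapular brown fat (BAT) of 6-week-old C57BL/6 mice. They were induced with insulin, dexamethasone and IBMX for 4 days and then kept in insulin and T3 for 4 more, and the medium held EGCG in 3 libraries and the solvent DMSO in the other 3. Members were chosen by label alone: depot, day and treatment. EGCG (epigallocatechin gallate) is the main catechin of green tea, and the labels used here give no dose. The same cells at day 4 and inguinal white (WAT) cells at day 8 are used for comparison, with 4 libraries each (replicates 1 and 2 of control and EGCG). Nothing in the labels says that replicates were separate isolations, so that the p-values may measure only technical spread.

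Brown adipocytes burn fat in dense mitochondria, and UCP1 lets protons back across the inner membrane so that the energy leaves as heat. When precursor cells become brown adipocytes, PPARG and C/EBP factors switch on the fat cell programme, and regulators such as EBF2, PRDM16 and PGC-1alpha add the mitochondrial and thermogenic genes. Undifferentiated stromal cells instead make matrix, contractile and signalling proteins.

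Replicates 1 and 2 were deposited in one table of FPKM (fragments per kilobase of gene, scaled to the mapped reads of the library) and replicate 3 in a second table made separately. Levels below are FPKM in replicates 1, 2 and 3 in that order. Changes are differences of log2(FPKM + 1), EGCG minus control, from replicates 1 and 2. They were tested with limma and called at a Benjamini-Hochberg adjusted p under 0.05, and the pseudocount of 1 makes them smaller than the true ratio for low genes. Replicate 3 gives the direction only. The reads on genes came to 39452696 to 52893848 in the 4 libraries of replicates 1 and 2, and to 17671381 and 17261888 in control and EGCG replicate 3. One WAT day 8 EGCG library of the second table had 61.0% of its reads on 5 genes. It enters no comparison given here.

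Of 14095 genes tested, 10231 (72.6%) were called, 46.5% of all tested genes higher with EGCG and 26.1% lower. With so many calls, the size of a change tells more than the call. At least 2-fold on this scale, 1198 genes were higher (8.5%) and 1325 lower (9.4%). The median over all genes was 0.17 and fell to 0.01 after median-ratio scaling of the libraries, so that changes are best read against 0.17. With that scaling, 51.0% of called genes were higher, against 64.0% without it. Of the called genes, 9843 (96.2%) had the same direction in replicate 3, beside 86.2% of all tested genes. For 67.7% of the tested genes the 3 EGCG libraries lay all above or all below the 3 control libraries. In the plot of change against level, the greatest falls stand farther from 0 than the greatest rises.

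**Figure D1:**
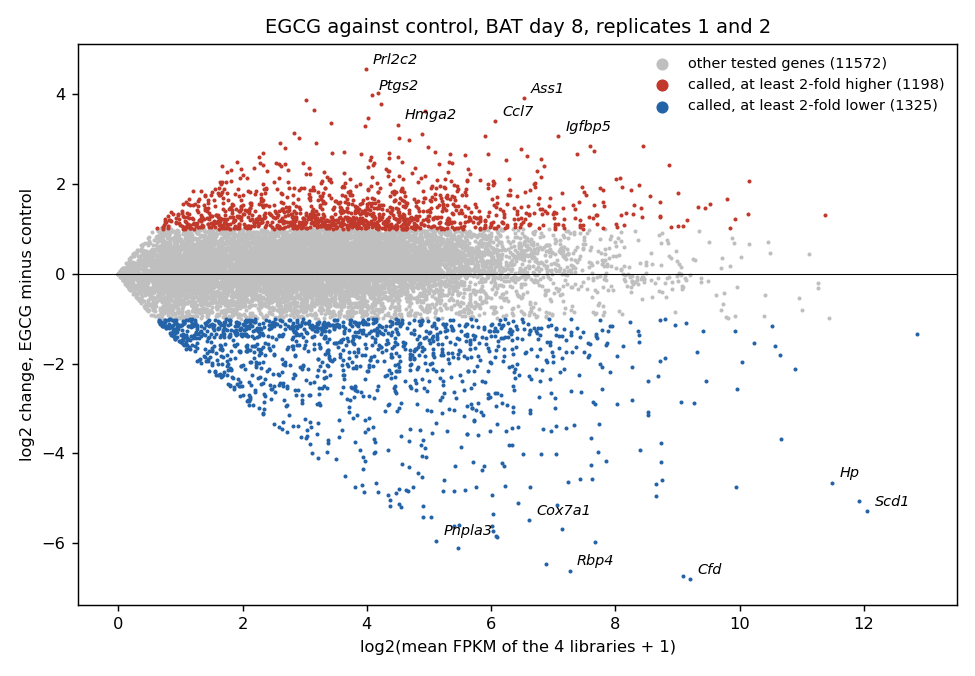
Change of each of 14095 tested genes (vertical axis, log2 scale, EGCG minus control) against its mean level (horizontal axis, log2 of mean FPKM + 1) in BAT day 8 replicates 1 and 2. Red points are the 1198 called genes at least 2-fold higher, blue points the 1325 at least 2-fold lower, and grey points the other genes; Cfd is lowest at -6.81 and Prl2c2 highest at 4.56.

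The cells were checked against markers first. The summed level of 10 adipocyte markers was 10240 to 11040 FPKM in the control libraries and 473 to 488 FPKM with EGCG, and 10 of 10 were called lower with a median change of -4.63. In bulk RNA, fewer adipocytes and less adipocyte RNA per cell cannot be told apart. Macrophage markers summed to 150 to 166 FPKM in control and 67.0 to 68.1 FPKM with EGCG, with 9 of 10 tested called lower. Endothelial markers went from 26.0 to 28.3 FPKM up to 41.3 to 46.3 FPKM. Of 9 tested, 6 were called higher (median 0.32), and 3 after median-ratio scaling. Schwann cell markers went from 28.3 to 30.0 FPKM up to 62.2 to 69.7 FPKM, where Sox10 was among 4 of 5 called higher. Of 13 skeletal muscle markers, Myod1, Myf5, Ckm and Myh4 were under the filter on low values. None of the 9 tested was called higher and 5 were called lower, with a median of -0.36. The markers summed to 117 to 126 FPKM in control and 51.9 to 70.3 FPKM with EGCG. Much of this fall was in Mb, the only member called at least 2-fold lower, at 55.1, 54.5 and 49.8 FPKM against 2.78, 3.79 and 5.40 FPKM. Pericyte markers summed to 64.4 to 69.4 FPKM in control and 73.0 to 78.2 FPKM with EGCG. Of 6 tested, however, 1 was called higher, 2 lower and 3 not called, with a median of -0.18. MHC class II markers summed to 10.3 to 12.3 and 7.78 to 9.78 FPKM, with 1 of 4 tested called higher and 1 lower. Epithelial and mesothelial markers summed to 5.82 to 6.32 and 7.56 to 10.6 FPKM, with 2 of 8 tested called higher and none lower. The part of these cell types in the results below was not tested.

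Most thermogenic genes fell with EGCG, among them 2 brown fat subunits of the respiratory chain. Of 17 listed thermogenic effectors, 13 passed the filter on low values (Otop1, Cpt1b, Slc27a2 and Bmp8b did not). Of the 13 tested, 11 were called lower and 2 higher, and the median change was -2.92. Cox7a1 (ENSMUSG00000074218.2, mm9 chromosome 7, 30969190 to 30971047, plus strand), the heart and brown fat isoform of a cytochrome c oxidase subunit, was at 191, 190 and 176 FPKM in control and at 2.87, 3.64 and 4.30 FPKM with EGCG. The groups lay far apart in all 3 replicates, and the change was -5.50 (SE 0.15, adjusted p = 4.3e-11 by limma). Cox8b, another tissue-specific subunit of the same complex, stood at 84.8, 76.2 and 76.9 FPKM against 1.65, 2.04 and 3.20 FPKM, a change of -4.84 (SE 0.23). Ucp1 (mm9 chromosome 8, 85814247 to 85822355, plus strand) was low even in control, at 6.97, 6.15 and 4.20 FPKM. No read was counted on it in any EGCG library. Against a floor of 3 reads summed over EGCG replicates 1 and 2, its level in these replicates was at least 359-fold lower with EGCG.

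The 250 bases upstream of the start of these 3 genes are shown because they are the 2 most reduced nuclear-encoded respiratory chain subunits and the uncoupling protein that defines brown fat. The sequences are from RefSeq (GRCm38.p6, chr7:30183921-30184170 plus strand for Cox7a1, chr7:140900447-140900696 minus strand for Cox8b, chr8:83290098-83290347 plus strand for Ucp1), run 5′ to 3′ along the gene, and end at the base before the start. Capitals mark matches to any of 6 motifs searched on both strands: the nuclear receptor site (AGGTCA), the TEAD site (GGAATG), the AP-1 site (TGANTCA), the TATA box (TATAAA), the CCAAT box (CCAAT, which reads ATTGG on the other strand) and the E-box (CACGTG). Matches of different motifs were counted separately where they overlapped.
Cox7a1: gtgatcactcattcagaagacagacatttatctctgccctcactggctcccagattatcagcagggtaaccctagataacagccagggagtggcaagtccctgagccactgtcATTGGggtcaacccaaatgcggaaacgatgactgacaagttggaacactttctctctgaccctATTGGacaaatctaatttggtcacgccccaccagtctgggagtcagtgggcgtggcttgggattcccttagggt
Cox8b: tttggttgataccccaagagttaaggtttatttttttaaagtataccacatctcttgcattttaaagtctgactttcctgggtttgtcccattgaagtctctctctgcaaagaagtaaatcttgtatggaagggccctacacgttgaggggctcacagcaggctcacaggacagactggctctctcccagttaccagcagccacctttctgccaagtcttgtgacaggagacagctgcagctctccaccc
Ucp1: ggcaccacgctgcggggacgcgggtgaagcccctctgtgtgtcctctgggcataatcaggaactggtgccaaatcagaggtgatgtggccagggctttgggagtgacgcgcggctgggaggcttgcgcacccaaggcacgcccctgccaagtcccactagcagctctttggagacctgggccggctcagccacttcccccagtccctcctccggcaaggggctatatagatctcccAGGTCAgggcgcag
Cox7a1 held CCAAT on the minus strand at 137 and 74 bases before the start, Ucp1 held AGGTCA at 14 bases before it, and Cox8b held no match in this window. These matches are a description of letters and not of binding.

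Other thermogenic genes of brown fat were nearly absent with EGCG. Kcnk3, a potassium channel of brown adipocytes, was at 42.7, 40.6 and 39.9 FPKM in control and 0.420, 0.471 and 0.502 FPKM with EGCG (-4.88, SE 0.13). Cidea, a lipid droplet protein of brown fat, was at 11.1, 10.95 and 8.51 FPKM against 0.0183, 0.0812 and 0.0498 FPKM (-3.52, SE 0.15). Aspg, an asparaginase that was also on the list, went from 85.3, 87.0 and 75.4 FPKM to 0.234, 0.277 and 0.382 FPKM (-6.12, SE 0.22). Each of these pairs of groups was separate by more than an order of magnitude. Dio2, which activates thyroid hormone, was a smaller case, at 2.59, 2.16 and 1.83 FPKM against 0.220, 0.280 and 0.419 FPKM (-1.43, SE 0.12). One member went far in the other direction. Fabp3, the heart-type fatty acid binding protein, was at 0.366, 0.493 and 0.550 FPKM in control and 9.44, 9.97 and 10.5 FPKM with EGCG (2.91, SE 0.25). Its gene overlaps Zcchc17, and whether strand was used in counting is not given in the sources used here.

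Regulators of the brown programme did not move as a block. Of 15 tested, 9 were called lower, 5 higher and 1 not called, with a median of -0.21. Irf4, a transcription factor that drives thermogenic genes with PGC-1alpha, was at 8.16, 7.94 and 6.65 FPKM against 0.0498, 0.0361 and 0.0123 FPKM (-3.12, SE 0.29). The PGC-1 coactivators fell as well, Ppargc1a by 1.77 and Ppargc1b by 2.48 on the log2 scale. The brown lineage factors Prdm16 (-0.21, SE 0.08) and Ebf2 (-0.23, SE 0.08) were called lower by a small amount. Zic1, a marker of the brown precursor lineage, went the other way, from 4.05, 3.57 and 4.38 FPKM to 8.00, 7.78 and 6.64 FPKM (0.89, SE 0.08). Nrf1, which controls respiratory chain genes, was also higher (0.83, SE 0.06).

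**Figure D2:**
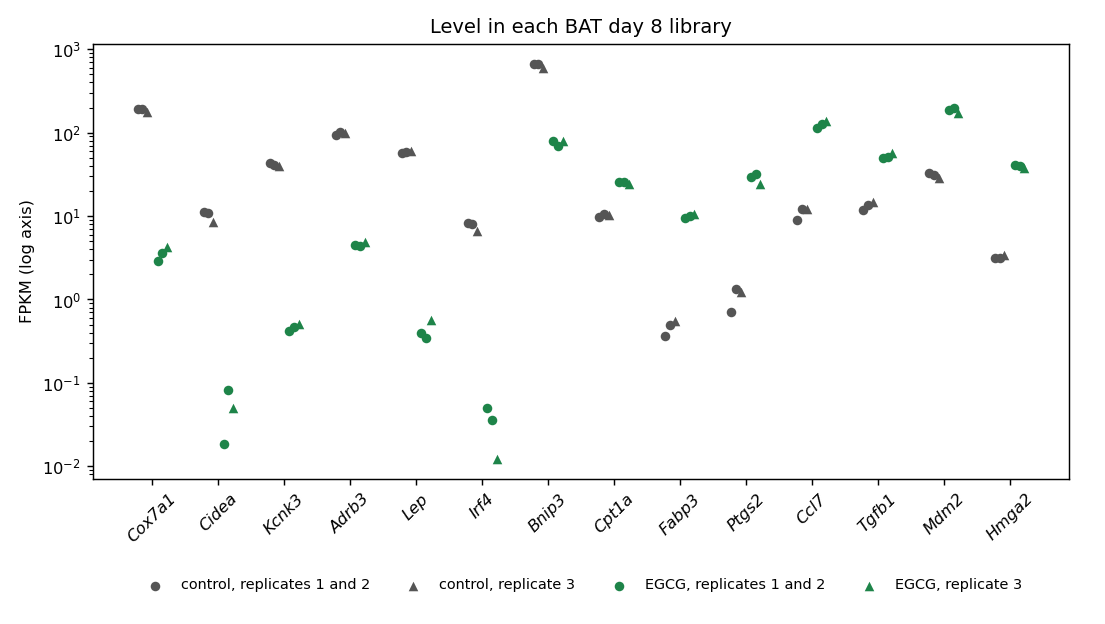
Level of 14 genes in each of the 6 BAT day 8 libraries, in FPKM on a log axis, with control in grey and EGCG in green, replicates 1 and 2 as circles and replicate 3 as triangles. The 3 EGCG libraries lie apart from the 3 control libraries for every gene drawn, as they do for 67.7% of all tested genes. Examples are 2.87 to 4.30 against 176 to 191 for Cox7a1 and 171 to 196 against 28.9 to 32.5 for Mdm2.

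All 16 core adipogenic transcription factors were called lower, with a median of -1.29, beside 26.1% of all genes called lower. The range was wide. Mlxipl, the glucose-sensing factor ChREBP, was at 52.4, 53.3 and 47.9 FPKM in control and 1.39, 1.59 and 1.24 FPKM with EGCG (-4.44, SE 0.19), and Klf15 fell by 2.91. The early factors moved little: Klf5 was at -0.28 and Ebf1 at -0.19. Of 20 factors that restrain adipogenesis, 12 (60.0%) were called higher, 3 lower and 5 not called, beside 46.5% of all genes called higher. The list median was 0.43, beside 0.17 over all genes. Of the 20, Twist2 (1.82, SE 0.07) and Klf4 (1.60, SE 0.10) were highest.

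Genes that store, make and release fat fell together. Of 18 adipokines and secreted proteins, 17 were called lower with a median of -4.08, and Metrnl, a secreted factor, was the exception at 1.17. Rbp4, the retinol carrier, was at 298, 309 and 326 FPKM against 2.01, 2.17 and 2.42 FPKM (-6.62, SE 0.10). Lep, the leptin gene, went from 57.1, 58.4 and 59.8 FPKM to 0.400, 0.342 and 0.569 FPKM (-5.42, SE 0.07), and complement C3 from 408, 396 and 386 FPKM to 5.55, 5.26 and 6.13 FPKM (-5.98, SE 0.14). The EGCG and control libraries did not overlap for any of these, as was so for 67.7% of all tested genes. Of 17 lipogenic genes 17 were called lower (median -2.15), and of 15 genes of triglyceride synthesis 14 were (median -1.93). In the latter group Lpin1 fell by 3.43 and Lpin2, its paralog, was higher at 0.66. Of 13 lipolysis and beta-adrenergic genes 12 were called lower (median -3.29). Pnpla2, the first lipase of triglyceride breakdown, was at 775, 777 and 821 FPKM against 30.6, 27.6 and 35.6 FPKM (-4.69, SE 0.10), and Adrb3, the receptor through which noradrenaline acts on fat cells, at 94.0, 102 and 98.5 FPKM against 4.50, 4.35 and 4.83 FPKM (-4.19, SE 0.11). Of 13 lipid droplet proteins 10 were called lower, and Plin5, which tethers droplets to mitochondria, fell by 4.13. Of 13 genes of fatty acid uptake and activation 8 were called lower and 2 higher (median -1.27). Slc2a4, the insulin-responsive glucose transporter GLUT4, was at 125, 127 and 117 FPKM against 1.57, 1.58 and 1.56 FPKM (-5.62, SE 0.17). In its list of 12 insulin signalling genes, 8 were called lower, and Akt1 (0.94) and Ptrf (0.21) were called higher.

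**Figure D3:**
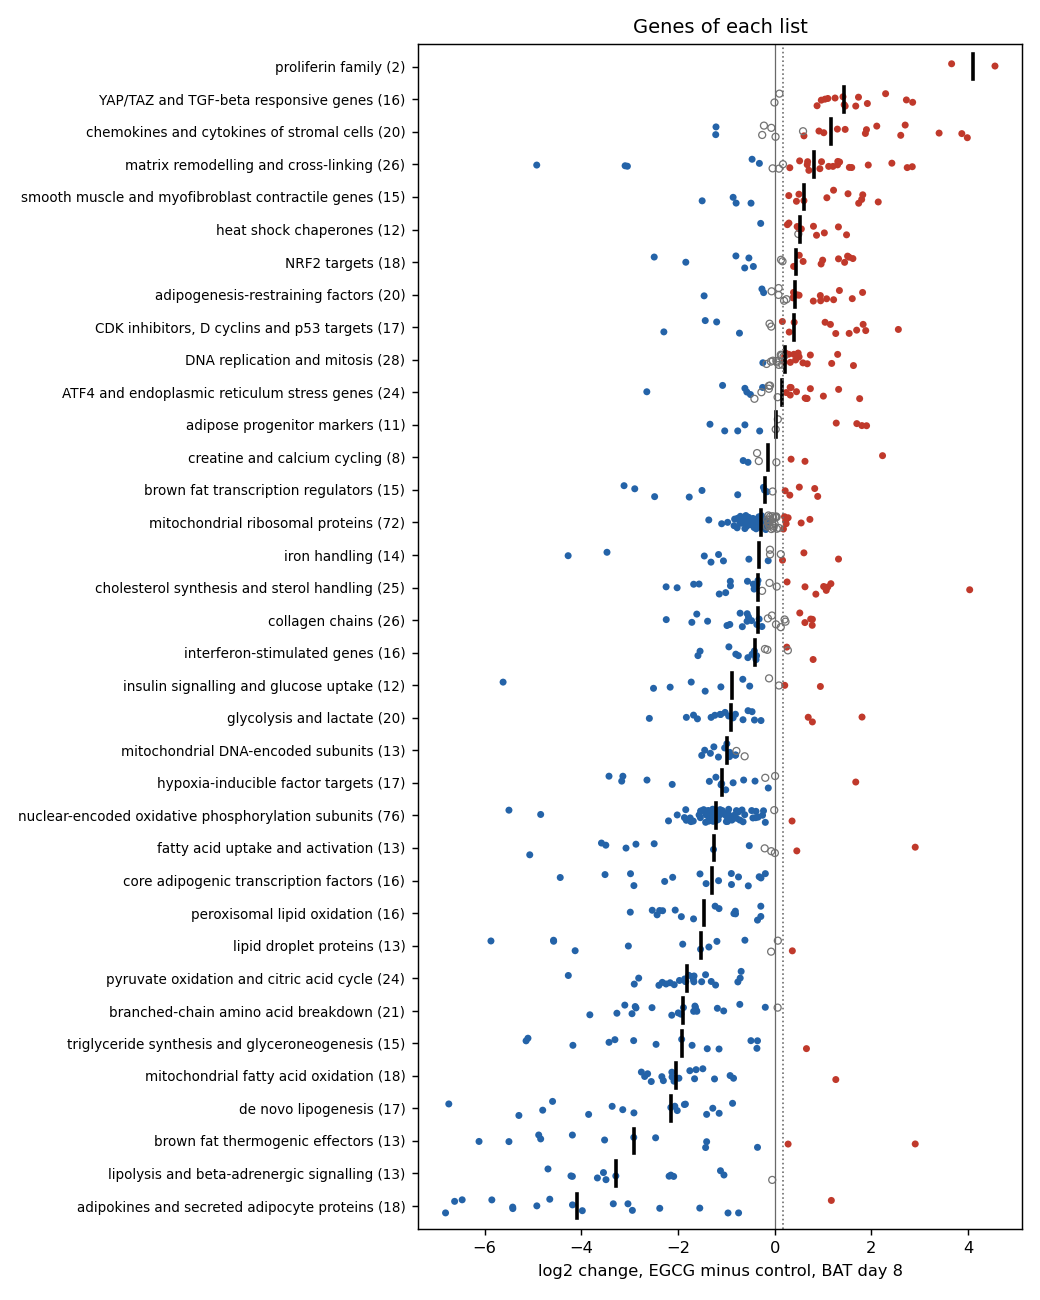
Changes of the tested genes of 36 pathway lists in BAT day 8 (horizontal axis, log2 scale, EGCG minus control), with the number tested in brackets. Red and blue points are called genes, open circles are genes not called, black bars are list medians, and the dotted line is the median of all genes at 0.17; the adipokine list has the lowest median at -4.08 and the 2 proliferin genes the highest at 4.11.

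The mitochondrial lists shared the direction but not the size. Of 24 genes of pyruvate oxidation and the citric acid cycle, 24 were called lower with a median of -1.81. Pcx, pyruvate carboxylase, which refills the cycle and feeds lipogenesis, was the lowest of them, at 377, 365 and 374 FPKM against 17.8, 18.7 and 19.6 FPKM (-4.27, SE 0.11). Of 18 genes of mitochondrial fatty acid oxidation, 17 were called lower (median -2.03), with Acadm, the medium-chain acyl-CoA dehydrogenase, at -2.76. Cpt1a, the liver isoform of the enzyme that lets fatty acids into mitochondria, was the one member called higher, from 9.80, 10.6 and 10.3 FPKM to 25.8, 25.8 and 24.3 FPKM (1.26, SE 0.11). All 16 peroxisomal genes were called lower (median -1.46). Of 21 genes of branched-chain amino acid breakdown, 20 were (median -1.89), with Aldh6a1 at -3.82.

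Of 76 nuclear-encoded subunits of oxidative phosphorylation, 74 were called lower, with a median of -1.21. Apart from Cox7a1 and Cox8b, changes ran from -2.20 in Uqcrfs1, the Rieske protein of complex III, to 0.36 in Atp5g1, the one subunit called higher. The median was -1.13 over 37 subunits of complex I, -1.37 over 9 of complex III, -1.35 over 14 of complex IV and -0.85 over 15 of ATP synthase. Ndufb2 was not called, and its level was far from the same in the 2 tables, at 0.742 to 0.880 FPKM in replicates 1 and 2 and 8.19 to 10.1 FPKM in replicate 3. The 13 subunits encoded by mitochondrial DNA had a median of -0.99, with 11 called lower and mt-Atp6 and mt-Atp8 not called. Mitochondrial ribosomal proteins moved least: of 72 tested, 45 were called lower, 7 higher and 20 not called, with a median of -0.28. Of the 76 nuclear-encoded subunits, 63 (82.9%) had a RefSeq promoter. In windows of 300 bases around the start, CCAAT was in 41.3% of these beside 41.1% of all 27025 genes with a promoter, AGGTCA in 20.6% beside 18.1%, TGANTCA in 11.1% beside 8.97%, GGAATG in 11.1% beside 16.6%, TATAAA in 9.52% beside 15.7% and CACGTG in 7.94% beside 8.09%.

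Glycolysis and the targets of hypoxia-inducible factor (HIF) were lower too. Of 20 glycolytic genes, 17 were called lower with a median of -0.91. Gpi1, glucose-6-phosphate isomerase, was at 391, 422 and 555 FPKM against 115, 112 and 175 FPKM (-1.83, SE 0.04). The 3 called higher were Eno2, the neuronal enolase isoform (4.91, 4.87 and 5.08 FPKM against 19.1, 20.0 and 19.4 FPKM), Hk1 (0.78) and the basal glucose transporter Slc2a1 (0.69). Of 17 HIF targets, 14 were called lower and 1 higher, with a median of -1.10. Egln3, a prolyl hydroxylase that HIF induces, was at 83.0, 84.8 and 79.5 FPKM against 9.26, 7.73 and 9.97 FPKM (-3.17, SE 0.09). Bnip3, a mitophagy receptor, fell by 3.14 and Vegfa, the angiogenic growth factor, by 1.35.

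Some lists, but not all, behaved otherwise in BAT at day 4 and in WAT at day 8. Adipocyte markers had a median of -4.63 in BAT day 8, -2.20 in BAT day 4 and -4.93 in WAT day 8. In the same order, the medians were -4.08, -1.14 and -4.28 for adipokines and -2.15, -0.89 and -1.64 for lipogenic genes. The BAT day 4 and WAT day 8 comparisons share no library with BAT day 8. The difference between changes was tested gene by gene in the same limma fit. Against BAT day 4, the change differed for 55.4% of all genes, with 34.7% higher at day 8 and 20.6% lower. Against WAT day 8 it differed for 39.2%, with 19.4% higher in BAT and 19.7% lower. Median-ratio scaling turned the first split from 4897 higher and 2906 lower to 3323 higher and 3770 lower. In glycolysis the median change was 0.53 in BAT day 4, -0.91 in BAT day 8 and 0.20 in WAT day 8, and 19 of 20 genes had a lower change in BAT day 8 than in each of the others. For HIF targets the median was 0.52 in BAT day 4, and 16 of 17 were lower in BAT day 8 than there, with 12 of 17 lower than in WAT day 8, where the median was -0.04. Egln3 rose from a mean of 3.80 to 9.19 FPKM in BAT day 4 (1.09) while it fell in BAT day 8.

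For the nuclear-encoded respiratory chain subunits the medians were -0.56 in BAT day 4 and -0.21 in WAT day 8, and 62 and 73 of 76 had a lower change in BAT day 8, respectively. The mitochondrial ribosomal proteins separated the depots, with 51 of 72 lower in BAT than in WAT at day 8 and a WAT median of 0.09. Interferon-stimulated genes differed in the other direction. Their median was -0.41 in BAT day 8 and -2.50 in WAT day 8, and 16 of 16 had a higher change in BAT.

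**Figure D4:**
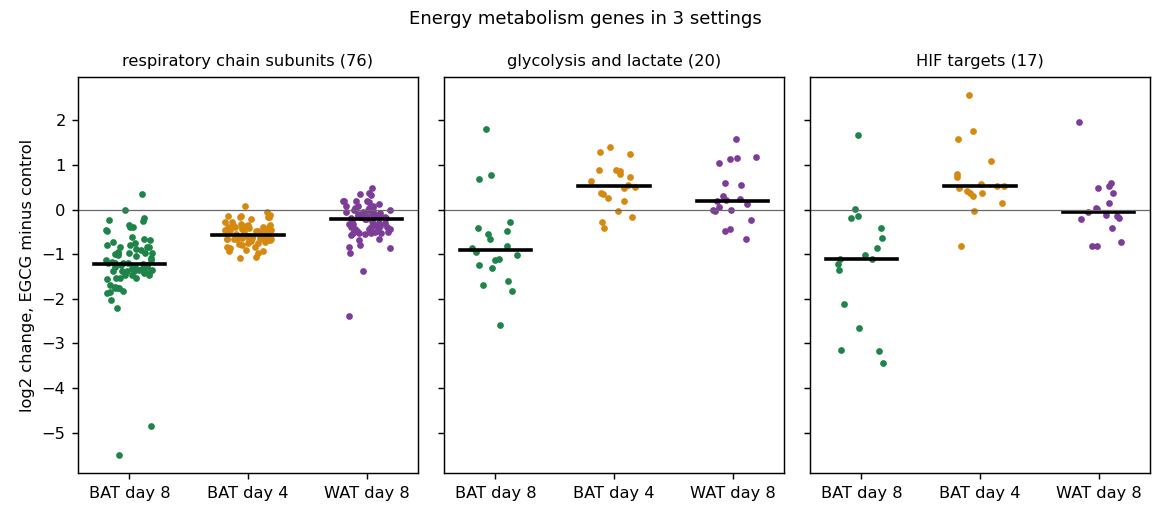
Change of single genes (vertical axis, log2 scale, EGCG minus control, replicates 1 and 2) in BAT day 8 (green), BAT day 4 (orange) and WAT day 8 (purple), for 76 respiratory chain subunits, 20 glycolytic genes and 17 HIF targets. Black bars are medians, which for glycolysis stand at -0.91, 0.53 and 0.20, and the 2 lowest green points of the left panel are Cox7a1 and Cox8b.

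Cox7a1 was among the genes with the greatest difference in both comparisons. In BAT day 4 it was low in either group, at a mean of 3.21 FPKM in control and 2.65 FPKM with EGCG, and in WAT day 8 at 21.1 and 7.47 FPKM. The level in BAT day 8 with EGCG had a mean of 3.25 FPKM, and the difference between the changes of BAT day 8 and day 4 was -5.30. The difference from the BAT day 4 change was -5.67 for Aspg, which was also low in both day 4 groups (0.822 and 0.326 FPKM). It was -5.33 for Rbp4, which was at 38.2 and 14.9 FPKM at day 4, and -5.17 for Selenbp1, a selenium-binding protein, at 10.5 and 9.19 FPKM. The gene 8430408G22Rik had a change of opposite sign at the 2 days. It was called lower in BAT day 8 (27.9, 32.9 and 30.5 FPKM against 2.03, 1.82 and 4.27 FPKM) and stood at 3.65 and 17.1 FPKM in control and EGCG at day 4. It overlaps Rassf4.

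Genes of the stromal and contractile programme were higher with EGCG. Of 16 genes responsive to YAP/TAZ and TGF-beta, 14 were called higher and none lower, with a median of 1.42, beside 46.5% of all genes called higher. Ctgf, a matricellular protein and classic YAP target, was at 77.3, 91.5 and 148 FPKM in control and 601, 627 and 972 FPKM with EGCG (2.85, SE 0.18). Tgfb1, the ligand itself, went from 11.9, 13.7 and 14.9 FPKM to 50.4, 51.4 and 57.3 FPKM (1.92, SE 0.07). Inhba, which codes for a subunit of activin, was at 2.72 (SE 0.27). Of 15 contractile genes 11 were called higher and 4 lower (median 0.60), with Acta2, smooth muscle actin, at 209, 250 and 294 FPKM against 755, 841 and 989 FPKM (1.80, SE 0.18) and Myh11, smooth muscle myosin, falling by 1.50. Against BAT day 4, where the median was 1.48, 11 of the 15 had a lower change, and against WAT day 8 (0.11) 9 had a higher one.

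Matrix genes went both ways. Of 26 genes of remodelling and cross-linking, 18 (69.2%) were called higher and 5 lower (median 0.82), beside 46.5% of all genes called higher. Tnc, tenascin C, was at 45.6, 46.3 and 48.0 FPKM against 341, 332 and 301 FPKM (2.85, SE 0.13), and the protease inhibitors Timp1 (2.42) and Timp3 (2.74) were higher. Their relative Timp4 was at 36.8, 39.6 and 38.4 FPKM in control and 0.302, 0.280 and 0 FPKM with EGCG (-4.92, SE 0.17). Eln, elastin, fell by 3.05. Of 26 collagen chains tested, 15 were called lower and 5 higher, with a median of -0.35, and Col6a1 fell by 1.61. Progenitor markers were split. Of 11 tested, 4 (36.4%) were called higher and 5 (45.5%) lower, beside 46.5% and 26.1% of all genes. Pdgfrb (1.80), Eng (1.70) and Cd24a (1.90) were among those called higher, and Dlk1 (-1.34) and Ly6a (-1.03) among those called lower. The median of this list, 0.02, turned to -0.18 with median-ratio scaling.

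Genes of cell signalling, chemokines among them, held some of the largest rises. Of 20 tested genes listed as chemokines and cytokines of stromal cells, 13 (65.0%) were called higher and 2 lower (median 1.16). Beside this, 46.5% of all genes were called higher. Ptgs2, the inducible cyclooxygenase, was at 0.716, 1.35 and 1.23 FPKM in control and 29.6, 32.0 and 24.1 FPKM with EGCG (3.98, SE 0.26). Il1rl1, the receptor for IL-33, was at 0.0446, 0.0287 and 0.0747 FPKM against 13.5, 14.8 and 13.3 FPKM (3.87, SE 0.19), whereas its ligand Il33 was called lower (-1.22, SE 0.26). Ccl7, a monocyte chemokine, was at 9.07, 12.2 and 12.1 FPKM against 115, 127 and 137 FPKM (3.40, SE 0.27). Il6 (2.70) and Csf1 (1.88), which is the growth factor of macrophages, were higher while the macrophage markers were lower. The difference from WAT day 8 was 3.29 for Ptgs2 and 2.81 for Ccl2, which overlaps Gm17268. Cd80, a costimulatory ligand, was at 1.30, 1.76 and 1.51 FPKM against 34.2, 33.6 and 28.2 FPKM (3.79, SE 0.16).

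Growth and stress genes were also among the rises. Hmga2, a chromatin protein of growing mesenchymal cells, was at 3.12, 3.11 and 3.42 FPKM against 40.7, 39.6 and 38.1 FPKM (3.32, SE 0.06). The 2 tested proliferin genes were nearly silent in control, with Prl2c3 at 0.202, 0.388 and 0.0666 FPKM against 13.9, 16.8 and 12.3 FPKM. These are near-identical copies, so that the split of reads between them is uncertain. Ass1, the arginine synthesis enzyme argininosuccinate synthase, was at 8.87, 12.3 and 16.2 FPKM against 168, 176 and 221 FPKM (3.92, SE 0.14). Gm5424, a copy of Ass1, followed it in replicates 1 and 2 but was at 0.0457 and 0.234 FPKM in the second table, so that its values are uncertain. Of 17 cell cycle inhibitors, D cyclins and p53 targets, 11 (64.7%) were called higher and 4 lower (median 0.40), beside 46.5% of all genes called higher. After median-ratio scaling, 8 of these were called higher and 6 lower (median 0.20). Mdm2, the p53 target that also degrades p53, was at 32.5, 30.7 and 28.9 FPKM against 186, 196 and 171 FPKM (2.56, SE 0.08). Pmaip1, which codes for the proapoptotic protein NOXA, was at 3.20, 3.97 and 4.19 FPKM against 54.0, 57.2 and 52.8 FPKM (3.63, SE 0.10). Cdkn1a (1.26), Ccng1 (1.54), Zmat3 (1.83) and Bax (1.69) were called higher as well, whereas Cdkn2c fell by 2.29. Of 28 genes of replication and mitosis, 17 were called higher and 1 lower (median 0.22), and this median was 0.09 after median-ratio scaling, where 9 were called higher.

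Of 18 NRF2 targets, 10 (55.6%) were called higher and 6 (33.3%) lower, with a median of 0.45, so that the counts were not far from the 46.5% and 26.1% of all genes. Hmox1, haem oxygenase, was at 150, 171 and 146 FPKM against 451, 483 and 495 FPKM (1.54, SE 0.08), and Gclc, the first enzyme of glutathione synthesis, was at 1.62 (SE 0.10). Gsta3, a glutathione transferase, fell by 2.49. Of 12 heat shock chaperones 10 were called higher (median 0.53), and Hspa1b, which shares reads with its copy Hspa1a, was at 1.49. The 24 genes of the ATF4 and endoplasmic reticulum stress responses had 12 higher (50.0%) and 6 lower (25.0%), near the shares over all genes, and their median of 0.15 became -0.05 with median-ratio scaling. Trib3, an ATF4 target, was at 62.5, 66.2 and 63.9 FPKM against 9.51, 9.37 and 11.1 FPKM (-2.65, SE 0.12), and the difference from its WAT day 8 change was -2.74. Of 25 genes of cholesterol synthesis and sterol handling, 13 were called lower and 9 higher. The sterol exporters Abca1 (-1.68) and Abcg1 (-2.25) were among those called lower.

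**Figure D5:**
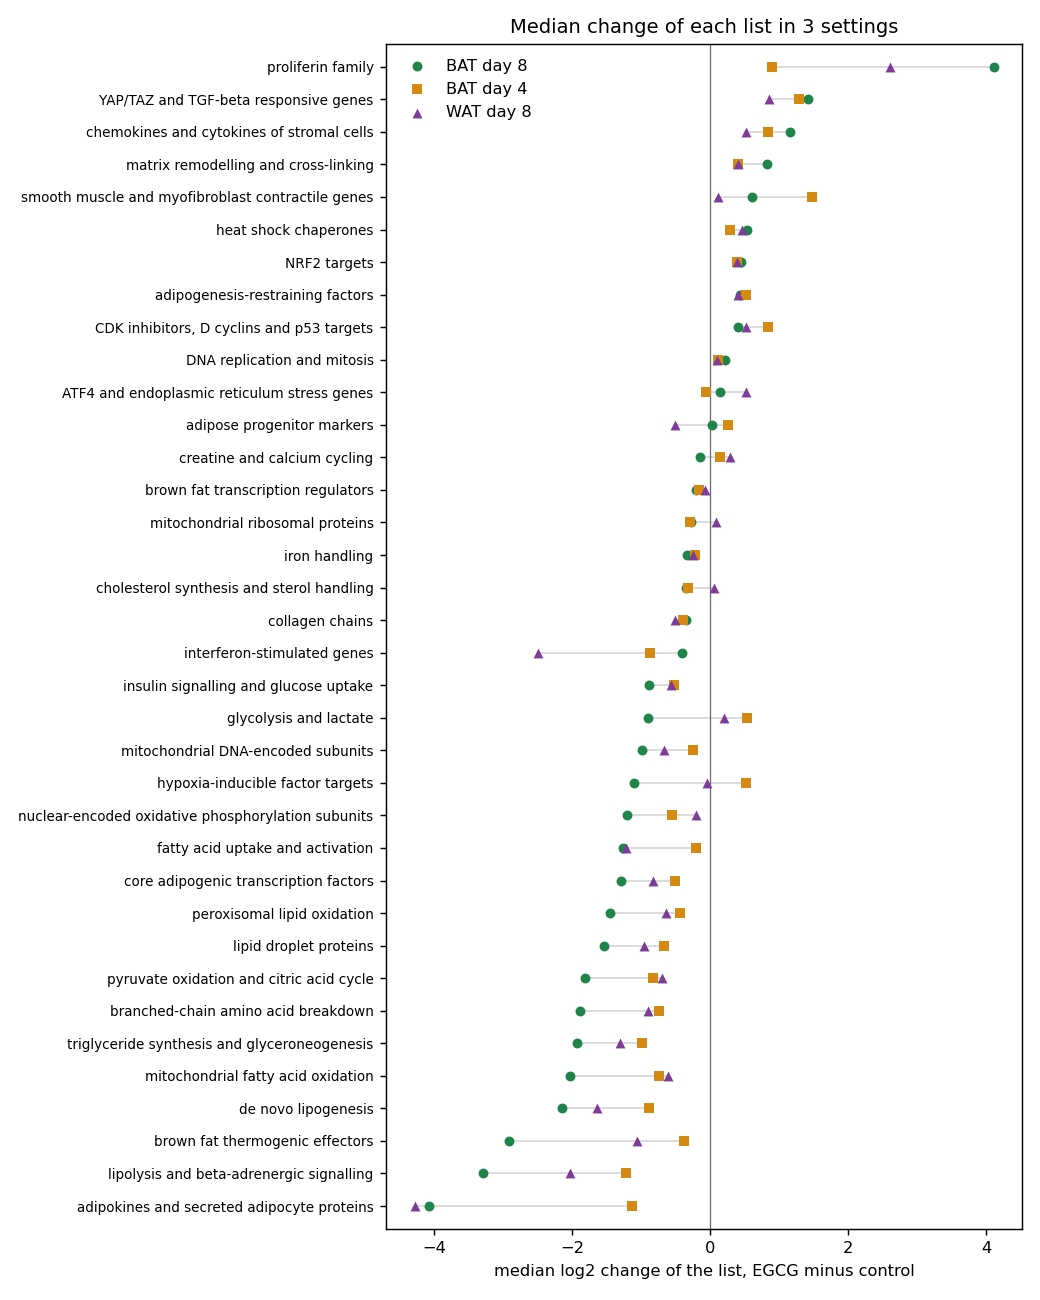
Median change of each of 36 lists (horizontal axis, log2 scale, EGCG minus control, replicates 1 and 2) in BAT day 8 (green circles), BAT day 4 (orange squares) and WAT day 8 (purple triangles). Glycolysis and HIF targets have a green median below 0 (-0.91 and -1.10) and an orange one above it (0.53 and 0.52).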

How the data were processed

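RNA of 24 libraries was measured, and 6 are compared here. The authors deposited FPKM per gene in 2 tables. Per the labels, the processing notes name FastQC 0.11.9, HISAT2 2.2.0 and HTSeq 0.11 with build mm9, and the settings are not given in the sources used here. Multiplied by gene length, the deposited FPKM gave whole reads in at least 99.954% of values (tolerance 0.01), and these gave the depths of 39452696 to 52893848 reads in replicates 1 and 2 and 17261888 to 17671381 in replicate 3. The 2 tables were not normalized together, and multi-copy genes differ between them.

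Genes with an FPKM of at least 1 in at least 2 of the 16 libraries of replicates 1 and 2 were tested (14095 of 37310) with limma 3.58.1 in R 4.3.3, with log2(FPKM + 1), 1 mean per group, trended variances, two-sided tests and Benjamini-Hochberg adjustment. The method was tested on simulated data in which few genes changed, equally up and down. It was not tested where most genes change. Named genes were the 15 highest and 15 lowest called changes with a mean FPKM of at least 5 in the higher group and the same direction in 3 replicates, the 5 highest and 5 lowest differences against BAT day 4 and WAT day 8 under the same rules, and list members. A few named genes and list members are not reported here. Members and lists were chosen with earlier results of these data known. The alternatives were a pseudocount of 0.1, no filter, other scalings, other sample sets, a replicate block, leaving out each library and, added after seeing the data, voom on the whole reads and fits without each replicate 3.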

Additional observations from a re-analysis of the deposited data

Results flagged for a closer look

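The EGCG change differed between BAT day 8 and another setting for the genes below, each called in the limma test of the difference itself (adjusted p under 0.05) and chosen as the 5 highest and 5 lowest by a fixed rule. Differences are on the log2(FPKM + 1) scale, and levels are mean FPKM of replicates 1 and 2. Groups of 3 libraries were too small for a search for outlying samples.

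Against BAT day 4, the change in BAT day 8 was higher by 4.07 for Prl2c2, which stood at 42.2 FPKM in control and 59.4 FPKM with EGCG at day 4 and at 0.290 and 29.3 FPKM at day 8. It was higher by 3.00 for Fabp3, 2.94 for Igfbp5, an insulin-like growth factor binding protein (55.6 and 61.0 FPKM at day 4), 2.85 for the histone gene Hist1h4n, whose near-identical copies make it uncertain, and 2.70 for the imprinted gene Peg10 (25.9 and 13.0 FPKM at day 4). The difference was -5.67 for Aspg, -5.40 for 8430408G22Rik, -5.33 for Rbp4, -5.30 for Cox7a1 and -5.17 for Selenbp1. Aspg overlaps AC112520.1. In day 4 controls Aspg was at 0.822 FPKM, Rbp4 at 38.2 FPKM and Selenbp1 at 10.5 FPKM, all below their day 8 control level.

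Against WAT day 8, the difference was 3.41 for Car3, carbonic anhydrase 3, 3.29 for Ptgs2, 3.07 for Ifi27l2a, 2.81 for Ccl2 and 2.76 for Mup10. Car3, Ifi27l2a and Mup10 were called lower in BAT too, by less than in WAT, where Car3 went from 1277 to 3.43 FPKM, Ifi27l2a from 83.8 to 0.266 FPKM and Mup10, one of a family of near-identical genes, from 369 to 1.37 FPKM. The difference was -4.11 for Cox7a1, -4.04 for Mb (myoglobin), -3.79 for O3far1, a fatty acid receptor, -3.61 for the mitochondrial protein Chchd10 and -3.54 for Cidea. Mb was at 2.56 and 3.49 FPKM in WAT and Cidea at 0.0321 and 0.0438 FPKM, both low in either group. Mb overlaps Apol6, Cidea B430212C06Rik and Chchd10 Mmp11.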

How the results depend on the processing

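All 30 genes named for the size of their change kept direction and call under the 16 alternatives, in 480 of 480 results. They were chosen from these same libraries as the most extreme called changes, so this says little about other genes. Over all 788 listed or named genes, 12072 gene results were counted as the same, also where the sign changed but neither fit called the gene. Of the rest, 317 lost the call, 207 gained it and 12 changed sign while called in either fit. With median-ratio scaling these were Acad8 (-0.13), Ccnd3 (-0.043), Ireb2 (-0.033), Mcam (-0.18), Mrpl45 (-0.16), Mrps21 (-0.17), P4ha1 (-0.20) and Slc27a4 (-0.19), and with quantile normalization Col3a1 (0.048), Fth1 (0.11), Pkm2 (0.13) and Sparc (0.36). The number of genes at least 2-fold higher was 1198, and 1855 with a pseudocount of 0.1 and 1918 with voom on the whole reads, where low genes are shrunk less. The number called was 9397 to 9525 without one library each. It was 10188 with a replicate block in the 16 libraries and 10262 in the 6 BAT day 8 libraries, beside 10231. In replicates 1 and 2, samples with the same number did not deviate together (correlation 0.01 in BAT day 8, -0.08 to 0.08 over 28 pairs of groups). This uses only the difference between replicates 1 and 2, so it cannot show whether samples share an isolation. Of 44 list medians, 29 were below 0, and 27 to 31 over the alternatives. The medians of 4 lists changed sign under at least 1 of them: creatine and calcium cycling, ATF4 and endoplasmic reticulum stress, progenitor markers and MHC class II markers. Depth limits genes near 0: 3 reads on a gene of 2 kb are 0.0869 FPKM in EGCG replicate 3.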

Other observations

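Iron handling genes were split in BAT day 8. Of 14 tested, 8 (57.1%) were called lower and 3 (21.4%) higher, beside 26.1% and 46.5% of all genes. The falls were large in Steap4, a metalloreductase (137, 142 and 131 FPKM against 6.15, 6.38 and 6.35 FPKM), and Cp, ceruloplasmin (209, 207 and 183 FPKM against 18.6, 17.1 and 16.9 FPKM). Ftl1, the ferritin light chain, was higher (1476, 1558 and 2350 FPKM against 3774, 3796 and 5827 FPKM). Fth1, the heavy chain, was called lower at -0.53, and its sign changed to 0.11 with quantile normalization. Among 8 genes of creatine and calcium cycling, 3 (37.5%) were called higher and 2 (25.0%) lower. Neither share was above the 46.5% and 26.1% of all genes. Slc6a8, the creatine transporter, was the highest, at 16.8, 16.6 and 17.9 FPKM against 83.0, 81.0 and 89.0 FPKM (2.23, SE 0.05).

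The macrophage markers differed between days of the brown culture. C1qa, a complement component of macrophages, was at a mean of 20.3 FPKM in control and 33.7 FPKM with EGCG at day 4, and at 15.7, 12.5 and 18.8 FPKM against 2.22, 2.62 and 3.06 FPKM at day 8. The median of the 10 markers was 0.67 at day 4 and -1.17 at day 8, and 9 of 10 had a lower change at day 8.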
